A study of Mus musculus with 3 samples.

Results

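The 38 genes described here encode the molecules that carry peptides and lipids to the cell surface for T cells, together with the proteins that load them. They were taken from a fixed list of symbols, matched by GENCODE M21 to the gene identifiers of the larger deposited gene table, in which 55536 rows name a gene. The list holds 2 classical and 14 non-classical class I heavy chains, 2 class I-like genes, 8 genes of the class I light chain and peptide loading, 4 class II chains, 6 class II chaperones and 2 transactivators. The RNA came from activated regulatory T cells, primary CD4 T cells that restrain immune responses, from a male mouse of 9 weeks. The strain name, Foxp3GFP-DTRCD4CreERT2R26tdTomato, lists 3 modified alleles: Foxp3GFP-DTR, CD4CreERT2 and R26tdTomato. All cells shared these alleles, and any treatment of the animal is not given in the labels used here. Polyadenylated RNA was sheared and sequenced in 3 libraries, which the labels number as technical replicates 1, 2 and 3 of 1 biological replicate. They form 1 group, so no contrast between conditions exists. The labels name no separate animals or cultures, and the SDs and p-values below therefore cover variation among libraries of the same RNA source alone, possibly technical.

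The estimated counts summed to 20783676 in replicate 1, 21206219 in replicate 2 and 18496690 in replicate 3. An undetected gene could still hold up to 3 counts, or 0.141 to 0.162 CPM (counts scaled to library size). The labelled cell type was checked against markers. Foxp3, the lineage factor of regulatory T cells, stood at 90.1 ± 6.76 TPM (SD, n = 3; TPM scales counts to transcript length and to the same total in each library), Il2ra at 352 TPM, Ctla4 at 319 TPM, Cd4 at 264 TPM and Cd3e at 1328 TPM. All 7 T cell markers and all 6 regulatory T cell markers reached 1 TPM in every library.

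Class I molecules are a heavy chain bound to beta-2-microglobulin, and nearly all nucleated cells use them to show peptides from their own cytosol to CD8 T cells. Peptides are cut by the proteasome, pumped into the endoplasmic reticulum by the Tap1-Tap2 transporter, trimmed, and fitted to the heavy chain by a loading complex. Class II molecules are an alpha and a beta chain that show peptides from endosomes to CD4 T cells; they are the hallmark of B cells, dendritic cells and macrophages. In mice, unlike in humans, activated T cells are known to make little class II of their own. Nlrc5 is the transactivator of class I genes and Ciita that of class II genes.

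Class I genes dominated the list. In every library 32 of the 38 genes reached 1 TPM, against 22.7% of all genes and 10425 of the 22028 protein-coding genes. The mean level of 18 of them was at least 100 TPM. Together the 38 genes took 3.28 ± 0.0468% of all TPM and 2.83 ± 0.0315% of all estimated counts (SD, n = 3). The summed level of the 2 classical heavy chains was 16717 ± 379 TPM and that of the light chain and loading genes 10702 ± 163 TPM. The 14 non-classical chains summed to 4443 ± 146 TPM, with a median of only 29.2 TPM. The 6 class II chaperones summed to 493 ± 22.9 TPM and the 4 class II chains to 74.3 ± 16.7 TPM. In the order of mean levels, 18 of 37 neighbouring pairs had ranges over the 3 libraries that did not overlap and 19 overlapped. The 6 highest genes, H2-K1, B2m, H2-D1, H2-Q7, H2-Q6 and H2-T23, were each separated from the next. The levels of Tapbp, Pdia3, Calr, Tap1 and Tap2 formed a run in which each overlapped its neighbour, and so did a lower run of H2-Q10, H2-Aa, H2-Q2, Mr1, H2-T24 and H2-Eb1.

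**Figure D1:**
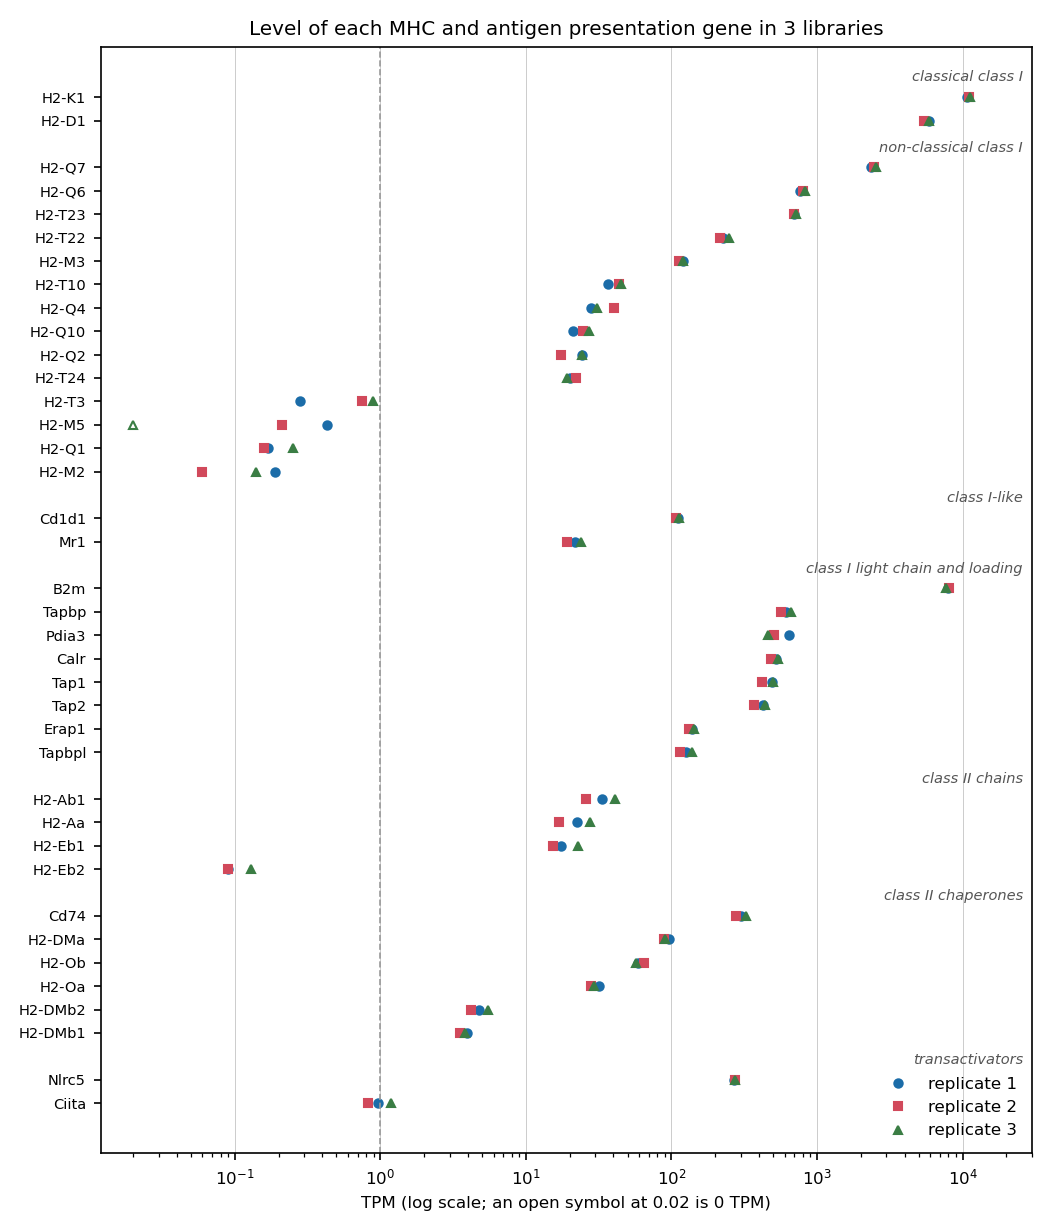
TPM of each of the 38 genes (log axis) in the 3 libraries, grouped by role; the dashed line marks 1 TPM and the open symbol is a value of 0. The classical chains and B2m lie above 5000 TPM, whereas the class II chains and Ciita lie below 41 TPM and Nlrc5 at 272 TPM.

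Coordinates are on the mm10 assembly. Of the 38 genes, 28 lay on chromosome 17, between positions 33915899 and 37483552, the mouse major histocompatibility complex. H2-K1 lay at 33996017 to 34000347 on the minus strand and H2-D1 at 35262730 to 35267499 on the plus strand. The class II genes stood between them, with H2-Ab1 at 34257689 to 34269419 and H2-Aa at 34282744 to 34287823. B2m and Pdia3 lay on chromosome 2, Calr and Nlrc5 on chromosome 8, Cd1d1 on chromosome 3, Mr1 on chromosome 1, Tapbpl on chromosome 6, Erap1 on chromosome 13 and Ciita on chromosome 16.

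The heavy chains differ mostly in the exons that form the peptide groove. Exon 2 encodes the alpha 1 domain, which lines the groove, and exon 4 the alpha 3 domain, which touches the light chain and the co-receptor. The first 60 bases of exon 2 are shown on the coding strand from GENCODE M21 (mm10), since it is at these differences that a short read can be told apart; capitals mark bases that differ from H2-K1.
H2-K1 exon 2, chr17:33999944-34000003, minus strand: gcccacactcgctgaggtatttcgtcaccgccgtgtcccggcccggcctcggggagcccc
H2-D1 exon 2, chr17:35263379-35263438, plus strand: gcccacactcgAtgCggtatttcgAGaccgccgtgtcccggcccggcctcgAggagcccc
H2-Q6 exon 2, chr17:35425108-35425167, plus strand: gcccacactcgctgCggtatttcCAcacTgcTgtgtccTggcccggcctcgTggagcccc
H2-Q7 exon 2, chr17:35439452-35439511, plus strand: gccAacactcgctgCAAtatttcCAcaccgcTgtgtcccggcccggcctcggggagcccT
H2-T23 exon 2, chr17:36032363-36032422, minus strand: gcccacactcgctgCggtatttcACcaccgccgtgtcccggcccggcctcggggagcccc
H2-T22 exon 2, chr17:36042069-36042128, minus strand: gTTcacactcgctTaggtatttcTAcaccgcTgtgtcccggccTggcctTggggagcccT
The first 60 bases of exon 4 follow in the same way.
H2-K1 exon 4, chr17:33997501-33997560, minus strand: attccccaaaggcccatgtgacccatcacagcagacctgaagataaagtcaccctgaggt
H2-D1 exon 4, chr17:35265784-35265843, plus strand: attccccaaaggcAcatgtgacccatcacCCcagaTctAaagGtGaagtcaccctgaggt
H2-Q6 exon 4, chr17:35427864-35427923, plus strand: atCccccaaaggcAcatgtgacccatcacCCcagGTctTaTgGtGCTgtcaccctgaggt
H2-Q7 exon 4, chr17:35442267-35442326, plus strand: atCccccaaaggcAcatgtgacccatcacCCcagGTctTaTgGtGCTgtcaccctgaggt
H2-T23 exon 4, chr17:36031038-36031097, minus strand: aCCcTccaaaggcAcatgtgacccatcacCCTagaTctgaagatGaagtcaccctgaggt
H2-T22 exon 4, chr17:36040694-36040753, minus strand: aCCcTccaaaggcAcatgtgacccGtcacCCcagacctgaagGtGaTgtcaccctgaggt

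In these windows H2-D1 differed from H2-K1 at 5 bases of exon 2 and 7 bases of exon 4. H2-T23 differed at 3 bases of exon 2 and 9 bases of exon 4. Every other chain shown likewise had more differences from H2-K1 in its exon 4 window than in its exon 2 window, unlike over whole exons. The H2-Q6 and H2-Q7 windows of exon 4 were the same 60 bases. Over the whole of each exon, H2-K1 and H2-D1 were 91.1% identical in exon 2, 88.0% in exon 3 and 96.0% in exon 4. Identity between H2-Q6 and H2-Q7 was 93.0%, 94.9% and 96.1% in the same 3 exons. Identity to H2-K1 was 69.6% in exon 2 and 84.8% in exon 4 for H2-M3, 68.5% and 93.5% for H2-T22, and 46.1% and 83.3% for H2-T24. H2-T10 and H2-T22 were 98.9% identical in exon 2.

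H2-K1, the classical heavy chain of the K locus, was the highest gene of the list, at 10655, 11070.1 and 11294 TPM in replicates 1, 2 and 3 (11006 ± 324 TPM). H2-D1, the classical heavy chain of the D locus, stood at 5845, 5427 and 5861 TPM (5711 ± 246 TPM). The lowest H2-K1 library was above the highest H2-D1 library, and on the TPM scale the log2 ratio of H2-D1 to H2-K1 was -0.95 ± 0.08 (SD, n = 3). That gap depended on how transcripts were treated. In estimated counts not scaled to length the log2 ratio was 0.00 ± 0.10, and over transcripts annotated as protein-coding, an alternative chosen after seeing the data, it was -0.09 ± 0.08.

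The transcript tables show where the gap lay. Of the TPM of H2-K1, 54.0 ± 1.27% lay on its 8 protein-coding transcripts and 45.3 ± 1.20% on transcripts annotated as retained intron. The largest of these was H2-K1-215, a fragment of 457 bases that took 25.6, 25.9 and 26.9% of the gene's TPM but 11.5 ± 0.439% of its counts. The full-length H2-K1-201 and H2-K1-205 took 19.6 ± 0.953% and 17.1 ± 0.695% of TPM. For H2-D1, coding transcripts took 98.0 ± 0.565% of TPM, mostly on H2-D1-202 (84.6 ± 1.64%). Coding transcripts alone gave 5940.2 ± 38.2 TPM for H2-K1 and 5597 ± 272 TPM for H2-D1. The difference of these means was little more than the SD of H2-D1 over libraries. Both sums hold short coding transcripts, such as H2-K1-202 (579 bases, 1061 TPM) and H2-D1-203 (391 bases, 587 TPM). The full-length H2-K1-201 and H2-K1-205 stood at 2155 and 1879.8 TPM, and H2-D1-202 at 4835 TPM. The order of the 2 genes thus depended on whether short transcripts were included.

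B2m, the light chain that every class I heavy chain needs, stood at 7931, 8023 and 7716 TPM (7890.3 ± 158 TPM). No 50-base word of its single annotated transcript occurred in another gene, and its counts were whole in every library. Its log2 ratio to the summed classical heavy chains was -1.08 ± 0.06 on TPM, -1.68 ± 0.07 on counts not scaled to length and -0.55 ± 0.06 over coding transcripts. B2m was lower than the 2 heavy chains summed on each of these scales, by an amount that changed with the scale.

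Among the non-classical heavy chains, which have few alleles and more specialised ligands, the Qa-2 genes H2-Q7 and H2-Q6 were the highest. H2-Q7 stood at 2366, 2448 and 2535 TPM and H2-Q6 at 769, 796 and 828 TPM, both lowest in replicate 1. H2-T23 encodes Qa-1, which presents the leader peptides of classical chains to natural killer cell receptors; it stood at 699, 694 and 718 TPM (704 ± 12.8 TPM). H2-T22, a ligand of gamma delta T cell receptors, stood at 227, 215 and 250.4 TPM. H2-M3, which presents formylated peptides, stood at 121, 113 and 121 TPM and did not pass the test between libraries given below (adjusted p = 0.359).

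The other non-classical chains were far lower. H2-T10, a close copy of H2-T22 that GENCODE M21 annotates as a polymorphic pseudogene, stood at 36.5, 43.8 and 45.2 TPM. H2-Q4 stood at 28.1, 40.6 and 30.7 TPM, with replicate 2 above the others. H2-Q10, known as a secreted chain of liver, stood at 24.4 ± 3.00 TPM, H2-Q2 at 21.9 ± 3.91 TPM and H2-T24 at 20.4 ± 1.55 TPM. Of the H2-Q10 level, 94.1 ± 5.78% lay on a retained-intron transcript and 1.52 ± 1.63 TPM on coding ones. H2-T3, which encodes the thymus leukaemia antigen, was at 0.640 ± 0.320 TPM, and H2-M5, H2-Q1 and H2-M2 were at 0.213, 0.193 and 0.130 TPM. The summed count of each of these 4 genes was below 30, too few for the test between libraries. H2-M5 had 0 counts in replicate 3, which allows up to 0.162 CPM there.

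The 14 non-classical chains together stood 3.76-fold below the 2 classical chains on TPM (log2 ratio -1.91 ± 0.02; SD, n = 3). In counts not scaled to length the log2 ratio was -1.25 ± 0.08. Of the H2-Q7 counts, 52.5 ± 3.36% fell on H2-Q7-206, a retained-intron transcript of 4209 bases, against 26.0 ± 2.66% of its TPM. Coding transcripts carried 42.9 ± 3.29% of the counts of H2-Q7 and 100.0% of those of H2-Q6.

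The 2 class I-like genes lie outside the complex. Cd1d1, which presents lipids to natural killer T cells, stood at 111, 108 and 112 TPM, and Mr1, which presents vitamin metabolites to mucosal-associated invariant T cells, at 21.6, 19.3 and 23.8 TPM. Coding transcripts carried 26.9 ± 1.51% of the Cd1d1 TPM, and 3 retained-intron transcripts the rest. Cd1d1 shared 19.1% of its 50-base words with its copy Cd1d2, which stood at 2.42 ± 0.205 TPM. Of the 7 other genes with a class I-like fold that were listed, 2 reached 1 TPM in every library: Fcgrt, the neonatal Fc receptor, at 5.23 ± 0.134 TPM, and Cd1d2. Hfe stood at 1.12 ± 0.505 TPM, with replicate 2 below 1 TPM, and Azgp1 had no counts.

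All 8 genes of the light chain and loading list were present. Tapbp, which encodes tapasin, the bridge between the transporter and the heavy chain, stood at 613, 569.8 and 658 TPM. The transporter subunits Tap1 and Tap2 stood at 490.4, 422 and 495 TPM and at 423, 372 and 442 TPM. Calr, which encodes the chaperone calreticulin, stood at 521, 480.2 and 539 TPM. In each of these 4 genes replicate 3 was the highest and replicate 2 the lowest.

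Erap1, the aminopeptidase that trims peptides in the endoplasmic reticulum, stood at 139 ± 5.35 TPM, and Tapbpl, a tapasin relative that edits peptides, at 126 ± 11.9 TPM. Pdia3, the thiol oxidoreductase of the loading complex, took another course, at 645, 509.7 and 462 TPM: it was highest in replicate 1 and lowest in replicate 3. Both main Pdia3 transcripts did so, with Pdia3-201 at 403, 325 and 317 TPM and the nonsense-mediated decay transcript Pdia3-203 at 238, 180.3 and 142 TPM. Of the 10702 TPM of the light chain and loading list, B2m alone made 7890.3 TPM. With B2m included, the list had a log2 ratio to the classical chains of -0.64 ± 0.05 on TPM and -0.22 ± 0.04 over coding transcripts.

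Tap2 differed from Tap1 in its transcripts. Of the Tap2 TPM, 7.36 ± 0.680% lay on coding transcripts and 92.4 ± 0.841% on retained-intron ones, nearly all on Tap2-202. This transcript of 2561 bases stood at 395, 344 and 405 TPM, against 28.3, 25.5 and 33.3 TPM for the coding Tap2-201 of 3442 bases. For Tap1, coding transcripts took 78.5 ± 1.59%. Among the 27 genes of the list with a mean of 10 TPM or more and more than 1 transcript, 12 had 90% or more of their TPM on coding transcripts and 8 had under 50%. The 8 were Nlrc5 (48.3%), H2-Ob (41.3%), Mr1 (38.6%), Cd1d1 (26.9%), H2-T10 (11.3%), Tap2 (7.36%), H2-Q10 (5.89%) and H2-Eb1 (3.70%). Of the estimated counts, coding transcripts carried 88.2% for Nlrc5, 65.3% for H2-Ob and 40.6% or less for the others of the 8. H2-Q4 and H2-Q7, not among the 8, had 44.3% and 42.9% by counts. Whether these shares reflect the RNA or how short reads were divided among overlapping transcripts was not tested.

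**Figure D2:**
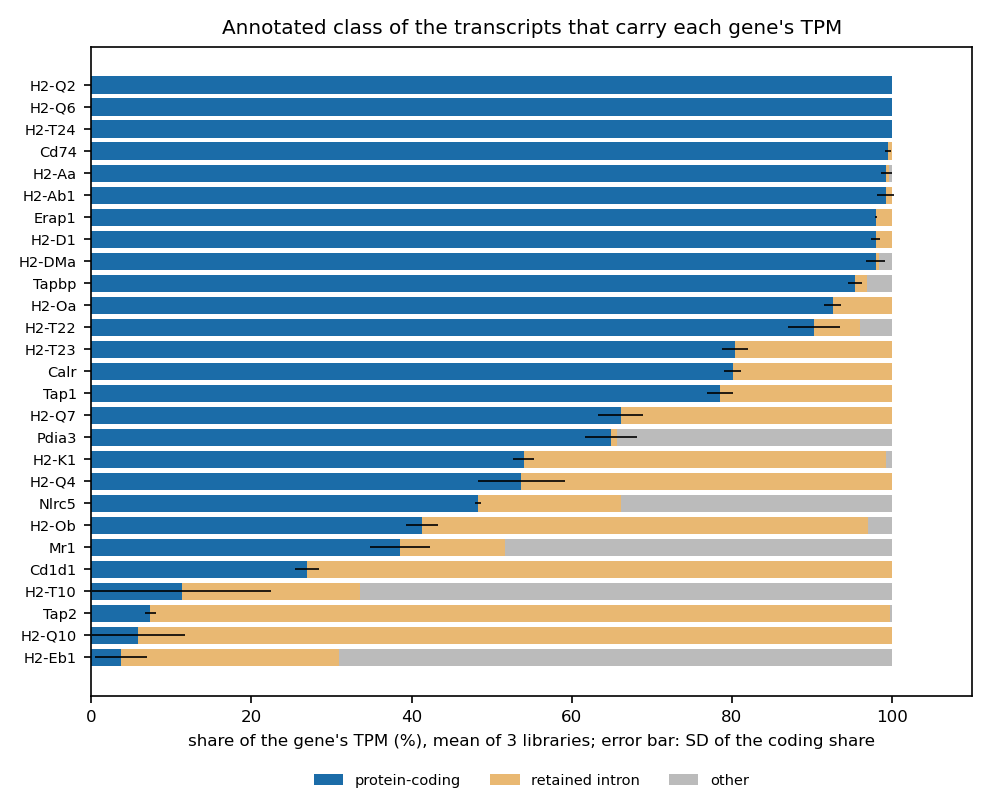
Mean share of each gene's TPM (horizontal axis, percent) on transcripts annotated as protein-coding (blue; error bar, SD over 3 libraries), retained intron (sand) and other classes (grey), for the 27 genes in scope. H2-D1 (98.0%) and H2-K1 (54.0%) differ in their coding share, and Tap2, H2-Q10 and H2-Eb1 are below 8%.

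Another 6 genes of class I assembly, listed with the loading genes, were all above 1 TPM and summed to 1022 ± 36.4 TPM. By the test between libraries given below, 5 of the 6 differed, against 66.6% of all genes with a mean count of 1000 or more. The chaperones Hspa5 and Canx stood at 517 ± 36.8 and 201 ± 13.1 TPM, and the glucosidase II subunits Ganab and Prkcsh at 116 ± 4.97 and 86.1 ± 2.80 TPM. Uggt1, which checks the folding of glycoproteins, stood at 51.1 ± 5.26 TPM and Lnpep, an aminopeptidase of cross-presenting endosomes, at 50.5 ± 3.16 TPM.

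The class II chains were present at low levels. H2-Ab1 and H2-Aa, the beta and alpha chains of I-A, stood at 33.4, 25.7 and 40.9 TPM and at 22.4, 17.0 and 27.6 TPM. H2-Eb1, the beta chain of I-E, stood at 17.4, 15.3 and 22.9 TPM, and H2-Eb2 was at 0.103 ± 0.0231 TPM, with 4, 4 and 5 counts. On TPM, the summed class II chains were 229-fold below the classical class I chains (log2 ratio -7.84 ± 0.30; SD, n = 3). The ratio in single libraries was -7.82, -8.15 and -7.55.

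H2-Ea-ps, the pseudogene of the I-E alpha chain in mice of the reference haplotype, had no counts in any library. Coding transcripts carried 99.3 ± 0.696% of the H2-Aa TPM and 99.2 ± 1.09% of that of H2-Ab1. For H2-Eb1 they carried 3.70 ± 3.21%, with 69.0 ± 5.70% on H2-Eb1-205, annotated for nonsense-mediated decay, at 11.9, 9.71 and 17.1 TPM.

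Cd74, the invariant chain that guards the class II groove, stood well above the chains, at 303, 279.8 and 327 TPM. Its mean was 303 ± 23.4 TPM, and Cd74-201 and Cd74-202 took 82.6 ± 1.02% and 16.9 ± 0.950% of it. The peptide exchange factor DM had an alpha chain at 96.3, 88.3 and 90.9 TPM (H2-DMa) and 2 beta chains at a few TPM, H2-DMb2 at 4.83 ± 0.672 TPM and H2-DMb1 at 3.76 ± 0.190 TPM. H2-Oa and H2-Ob, which form the DM inhibitor DO, stood at 29.8 ± 1.80 and 60.1 ± 3.93 TPM. The beta chain of DO was thus above that of DM, while the alpha chain of DO was below that of DM, with no overlap of libraries in either case.

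Of the 9 other genes of class II processing that were listed, 7 reached 1 TPM in every library. The endosomal proteases Ctsb, Ctsd and Ctss stood at 605 ± 95.0, 384 ± 46.9 and 341 ± 10.1 TPM. Ctss is the protease that cuts the invariant chain in B cells and dendritic cells. Sppl2a, which clears the invariant chain's stub, stood at 68.1 ± 6.05 TPM, Ifi30 at 26.1 ± 2.50 TPM, Lgmn at 18.3 ± 2.55 TPM and Ctsl at 12.5 ± 0.990 TPM. March1 and March8, ubiquitin ligases that remove class II from the surface, stood at 0.230 and 0.503 TPM. Of the 8 tested, 7 differed between libraries, against 44.9% of all genes tested.

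The 2 transactivators lay far apart. Nlrc5 stood at 270.4, 274 and 272 TPM (272 ± 1.82 TPM), and Ciita at 0.970, 0.820 and 1.18 TPM (0.990 ± 0.181 TPM) on 60, 44.93 and 64 counts. On the TPM scale Nlrc5 had the smallest SD of the list relative to its mean. Its coding transcript Nlrc5-207 took 79.4 ± 0.346% of its counts. Among 10 listed factors that act at MHC promoters, all reached 1 TPM in every library. The interferon regulatory factors Irf1 and Irf2 stood at 394 ± 12.2 and 179 ± 2.47 TPM. The subunits of RFX, the factor that anchors both transactivators, stood at 35.8 ± 1.97 TPM (Rfxank), 21.9 ± 4.29 TPM (Rfx5) and 6.68 ± 1.24 TPM (Rfxap). Creb1 stood at 80.7 ± 4.88 TPM, and the NF-Y subunits Nfyb, Nfyc and Nfya at 65.3 ± 4.08, 61.0 ± 5.93 and 6.17 ± 0.110 TPM. Of the 10 factors, 4 differed between libraries, a share close to the 44.9% of all genes tested.

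Promoters are shown because the 2 transactivators are known to bind no DNA of their own and to act through a shared module of X, X2 and Y boxes. RefSeq (GRCm38.p6) start sites matched 28 of the 38 genes, and the 250 bases before the start were searched on both strands. The letters searched were CCAAT (Y box), TGACG (the core of the CREB site in the X2 box), AANNGAAA (the core bound by interferon regulatory factors, added after seeing the data), the interferon response core, which holds AANNGAAA, and an NF-kappaB site of GGGA and TCCC separated by 2 bases. Capitals mark every match; ATTGG and TTTCACTT are matches on the other strand.
H2-K1 promoter, chr17:34000348-34000597, minus strand: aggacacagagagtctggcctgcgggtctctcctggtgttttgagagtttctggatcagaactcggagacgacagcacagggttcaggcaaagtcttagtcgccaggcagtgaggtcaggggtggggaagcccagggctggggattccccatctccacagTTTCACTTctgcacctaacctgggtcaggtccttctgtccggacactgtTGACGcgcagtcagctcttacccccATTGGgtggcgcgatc
H2-Q7 promoter, chr17:35438905-35439154, plus strand: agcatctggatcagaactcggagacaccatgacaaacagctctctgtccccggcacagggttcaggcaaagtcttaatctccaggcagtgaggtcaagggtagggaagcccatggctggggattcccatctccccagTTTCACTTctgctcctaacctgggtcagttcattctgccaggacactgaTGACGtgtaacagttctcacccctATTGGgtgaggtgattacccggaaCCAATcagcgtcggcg
B2m promoter, chr2:122147437-122147686, plus strand: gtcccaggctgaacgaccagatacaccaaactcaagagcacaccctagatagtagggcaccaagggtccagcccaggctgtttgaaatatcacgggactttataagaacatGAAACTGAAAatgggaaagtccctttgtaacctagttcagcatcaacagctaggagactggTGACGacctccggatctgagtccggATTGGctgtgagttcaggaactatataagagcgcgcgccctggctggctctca
H2-Aa promoter, chr17:34287824-34288073, minus strand: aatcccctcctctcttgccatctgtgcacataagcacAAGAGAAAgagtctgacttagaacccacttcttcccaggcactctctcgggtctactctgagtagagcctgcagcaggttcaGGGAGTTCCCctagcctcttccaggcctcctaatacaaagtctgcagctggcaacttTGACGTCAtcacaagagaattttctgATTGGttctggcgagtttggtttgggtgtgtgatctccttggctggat

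CCAAT was found in 23 of the 28 genes, against 33.8% of 32851 promoters of the same length. TGACG was found in 11 of the 28, against 17.8%, and AANNGAAA in 18 of the 28, against 21.3%. The interferon response core was found in 3 genes (B2m, H2-T22 and H2-T23), against 2.98% of promoters. The NF-kappaB site in the spelling searched was found in 2 (H2-Aa and H2-Q4), against 0.578%. Other spellings were not searched, such as the ggggattcccc in the promoters of H2-K1, H2-D1 and H2-Q6, so their absence cannot be read from this count. In all 4 promoters shown, TGACG was followed by ATTGG at a distance of 24 to 26 bases. The starts of the 2 motifs were 25 bases apart in H2-K1, 24 in H2-Q7, 25 in B2m and 26 in H2-Aa. H2-D1 and H2-M3 also had them 25 bases apart. These 6 of 28 genes held the pair at a distance of 20 to 30 bases, a search added after seeing the sequences, as did 68 of all 32851 promoters (0.207%). A listed gene was counted if any of its promoters matched, while the shares over all promoters count each promoter, so the units differ. H2-DMa, for example, also had a promoter without a match. A match is a description of letters and not of binding.

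The libraries were compared gene by gene with Pearson's chi-square test on estimated counts against library totals, adjusted by Benjamini-Hochberg over 14641 genes. Of the 38 genes, 33 had the summed count of 30 that the test needed, and 26 of them differed at an adjusted p under 0.05, against 44.9% of all genes tested. The test finds smaller differences in deeper genes: of the 22 with a mean count of 1000 or more, 19 differed, against 66.6% of such genes. Without replicate 2, 16 of the 33 differed, against 27.7% of all genes. With the statistic divided by an overdispersion factor of 4.54 shared by all genes, 12 of the 33 and 9.10% of all genes did. The 7 that were tested and did not pass were H2-M3, Cd1d1, H2-DMa, H2-DMb1, H2-DMb2, H2-Oa and Ciita.

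Most differences were small. The coefficient of variation (CV) of CPM over libraries had a median of 6.67% over the 33 genes and 10.4% over all genes tested, and at a mean count of 1000 or more the medians were 5.30% and 5.33%. Replicate 2 held the lowest CPM of 20 of the 33 genes, against 35.3% of all genes tested, and replicate 3 the highest of 19, against 32.9%. Both held for 16 of the 33, against 18.9%. All 7 T cell markers had the same order by CPM, highest in replicate 3 and lowest in replicate 2 (lowest there in 6 of 7 under every library size tried), and all 6 regulatory T cell markers were lowest in replicate 3. The part of these marker shifts in the results was not tested.

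A CV above 20%, a threshold chosen after the values were seen, was found in 4 of the 33 genes, against 24.8% of all genes tested. The 4 were H2-Aa (26.4%), Ciita (23.9%), H2-Eb1 (23.1%) and H2-Ab1 (22.2%). Genes with a mean count of 100 to 1000, the range of the 3 class II chains, had a CV above 20% in 14.0% of cases and a median of 9.70%. All 4 were highest in replicate 3 and lowest in replicate 2. The ratio of the highest to the lowest CPM was 1.70 for H2-Aa, 1.55 for H2-Ab1, 1.52 for H2-Eb1 and 1.63 for Ciita. The 3 chains differed between libraries (adjusted p = 9.0e-09 for H2-Aa, 9.1e-10 for H2-Ab1 and 3.7e-05 for H2-Eb1), and Ciita, on 56.3 counts a library, did not pass (adjusted p = 0.0814). With the shared overdispersion factor none of these 4 passed. H2-Eb1 did not pass without replicate 3 or in the smaller gene table, and Ciita passed without replicate 1. Cd74 had the same order with a ratio of 1.14 and a CV of 6.67% (adjusted p = 1.2e-08), but did not pass with the overdispersion factor or in the smaller gene table. Of the DM and DO genes, H2-DMb2 had this order too, without passing the test (adjusted p = 0.341). H2-DMa, H2-DMb1 and H2-Oa were highest in replicate 1 and H2-Ob in replicate 2.

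Markers of the cells that carry much class II were read in the same libraries. The 10 B cell markers summed to 65.9, 65.7 and 75.7 TPM. By CPM 8 of them were highest in replicate 3 and 6 were lowest in replicate 2, and 4 differed between libraries, among them Cd79a, Ms4a1 and Fcer2a, a share close to the 44.9% of all genes tested. Cd79b made up most of the sum, at 38.2, 39.9 and 38.2 TPM, and did not pass the test (adjusted p = 0.488). Cd79a stood at 5.86, 5.84 and 8.13 TPM and Ms4a1 at 1.57, 1.57 and 3.43 TPM. The 10 macrophage and monocyte markers summed to 139.7, 93.9 and 157 TPM. By CPM 9 of them were lowest in replicate 2, against 35.3% of all genes tested, with 5 highest in replicate 1 and 5 highest in replicate 3. Of the 10, 8 differed between libraries, against 44.9% of all genes tested. Csf1r stood at 9.14, 5.48 and 9.66 TPM, C1qb at 22.1, 11.7 and 21.2 TPM and Ly6c2, which T cells can also express, at 58.0, 40.4 and 73.3 TPM.

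The 10 dendritic cell markers summed to 68.8, 53.0 and 56.8 TPM, of which Irf8, which is not confined to dendritic cells, made 56.3 ± 8.39 TPM. Zbtb46, at 1.38, 1.28 and 1.41 TPM, also reached 1 TPM in every library. Of the 4 tested, 2 differed between libraries, against 44.9% of all genes tested. They were Irf8, highest by CPM in replicate 1, and Xcr1, highest in replicate 3 on 17, 22 and 35 counts. Flt3 was at 0.0900 TPM, Clec9a at 0.0733 TPM, and Clec10a had no counts. Markers of thymic epithelium and stroma summed to 3.82 ± 0.970 TPM, nearly all Epcam, with no counts of Krt5, Krt8 or Pdgfra. The part of these cells in the class II values was not tested. In bulk RNA, a few cells with much class II and many cells with little cannot be told apart.

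**Figure D3:**
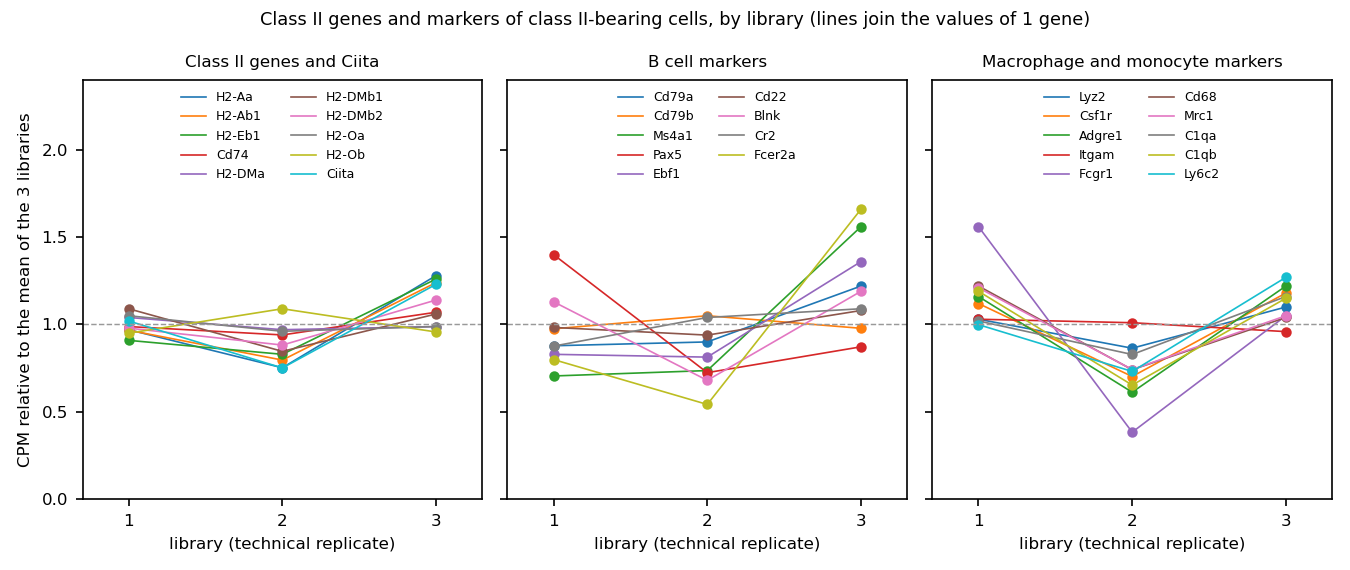
CPM of each gene divided by its mean over the 3 libraries (vertical axis) against the library (horizontal axis), for class II genes with Ciita (left), B cell markers that are reported (middle) and macrophage and monocyte markers (right); lines join the points of 1 gene and imply no order of libraries. H2-Aa, H2-Ab1, H2-Eb1 and Ciita are lowest in replicate 2 and highest in replicate 3. Of the 10 macrophage and monocyte markers, 9 are lowest in replicate 2, against 35.3% of all genes tested.

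Reads that fit several genes are divided among them in the estimated counts, which leaves counts that are not whole. A count more than 0.005 from a whole number occurred in 1 library or more for 23 of the 33 genes tested, against 48.5% of all genes tested, and 10 genes had whole counts in every library. The 10 with whole counts were Mr1, B2m, Tapbpl, Pdia3, H2-Aa, H2-Ab1, H2-Eb1, Cd74, H2-Ob and Nlrc5. The classical and non-classical heavy chains all had fractions in all 3 libraries, except H2-M5, which had 0 counts in 1 library.

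The share of a gene's 50-base words that its GENCODE M21 transcripts have in common with another gene shows which copies are close. The 50 bases are the read length inferred from the deposited lengths and effective lengths. It was highest for H2-T22 (53.5%) and H2-T10 (50.4%), which shared 31.2% and 31.7% of their words with each other. H2-Q4 followed at 36.4%, H2-Q6 at 35.0%, H2-Q7 at 26.5%, H2-DMb2 at 25.9%, Tapbp at 23.2% and H2-DMb1 at 22.7%. H2-K1 and H2-D1 shared 9.63% and 12.8%. Not all sharing was with copies: H2-DMa shared its words with its neighbour Brd2, Erap1 with Cast and Ciita with Dexi. Tapbp shared 20.3% of its words with Gm19412, its main partner, and had words in common with 417 genes in all.

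The deposited posterior SD of the count gives the uncertainty of dividing reads, as a percent of the count. It was 0.0631% for H2-K1 and 0.0745% for H2-D1, 0.171% for H2-Q7 and 0.281% for H2-Q6. It rose to 1.84% for H2-Q4, 2.17% for H2-T10, 4.65% for H2-DMb2 and 7.69% for H2-DMb1, and was 0 for B2m, Cd74 and the class II chains. H2-T22 shared as many words as H2-T10, yet its posterior SD was 0.599%, on 5215 counts a library against 1082. For the 33 genes tested this uncertainty was below the spread between libraries in each named case: the CV was 11.4% for H2-T10, 19.4% for H2-Q4 and 13.4% for H2-DMb1. It covers reads divided among annotated sequences, not reads from a haplotype that differs from the reference, which was not tested.

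**Figure D4:**
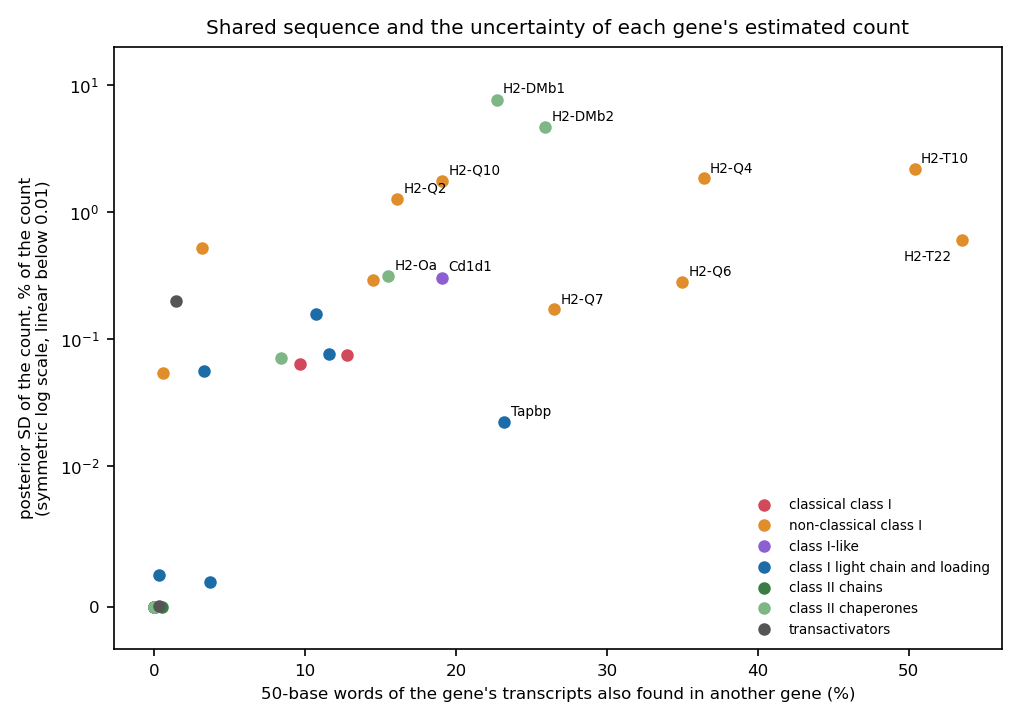
Posterior SD of the estimated count as a percent of the count (vertical axis, symmetric log scale) against the percent of a gene's 50-base words found in another gene (horizontal axis), 1 point per gene tested, coloured by role. H2-DMb1 and H2-DMb2 have the widest posterior SD (7.69% and 4.65%), while the class II chains and B2m lie at 0 on both axes or close to it.

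The smaller deposited gene table gave other levels for the most abundant genes. H2-K1 had 2312 ± 28.6 counts there, 1.74% of its estimated count, H2-D1 had 2046 ± 28.0 (1.54%) and B2m 854 ± 12.1 (1.03%). Over all genes tested the median share was 47.1%, and over 269 genes with a mean count of 10000 or more it was 10.8%. H2-M3, with 1073 ± 33.3 counts, kept 50.7% and H2-Aa kept 65.6%.

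Set against length, the counts of the smaller table levelled off near 1 per exonic base. Exonic bases are those in any GENCODE M21 exon of the gene, although the smaller table was made with GENCODE M4. B2m had 0.993 counts per exonic base over 860 bases against 96.5 estimated counts per base, H2-D1 0.793 against 51.4 and H2-K1 0.787 against 45.1. Nlrc5 had 0.799 against 1.60. Over the 269 most abundant genes the 99th percentile was 1.64 per base in the smaller table and 56.9 in the larger. The order of levels between abundant genes therefore differs between the tables. For ratios, the counts of the smaller table were divided by the effective lengths of the larger table. On that scale the light chain and loading genes exceeded the classical chains (log2 ratio 1.34 ± 0.03), and so did the non-classical chains (0.22 ± 0.02). The class II chains were below the classical chains by less, with a log2 ratio of -2.60 ± 0.23. How reads were counted in that table is not given in the sources used here.

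Per exonic base, H2-Q7 had 0.274 counts in the smaller table and H2-Q6 0.592. The estimated count per base of H2-Q7 was the higher (15.3 against 10.1). H2-Q7 has 4265 exonic bases and H2-Q6 2085, and their counts in the smaller table were close (1169 ± 16.3 and 1235 ± 26.5). H2-Q7 kept 1.79% of its estimated count, near the 1.74% of H2-K1. H2-Q10 kept 4.13% of its estimated count, while H2-T10 and H2-Q4, of like depth, kept 37.3% and 46.1%. Both H2-Q7 and H2-Q10 had most of their estimated counts on long retained-intron transcripts (52.5% on H2-Q7-206 and 97.9 ± 2.13% on H2-Q10-203). Whether this bears on their values in the smaller table was not tested.

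**Figure D5:**
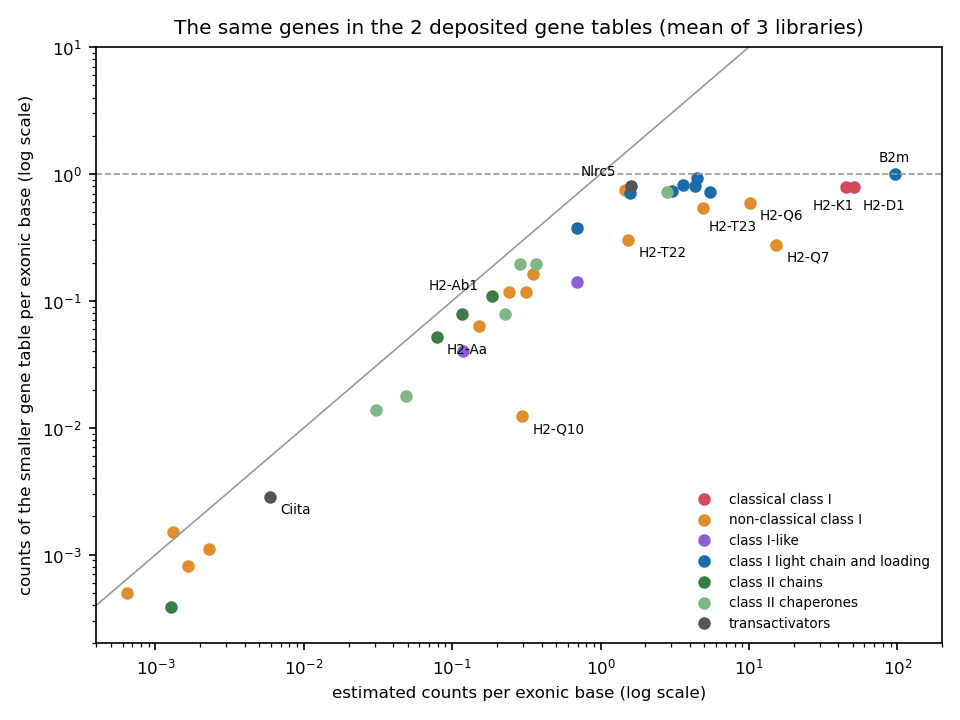
Counts per exonic base of the 38 genes in the smaller gene table (vertical axis, log) against estimated counts per exonic base in the larger one (horizontal axis, log), means of 3 libraries; the solid line is equality and the dashed line 1 count per base. B2m, H2-K1 and H2-D1 lie near the dashed line at 45.1 to 96.5 estimated counts per base, and H2-Q10 lies below genes of its depth.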

How the data were processed

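RNA-seq of polyadenylated RNA was measured in 3 libraries of 1 biosample. For each library the authors deposited tables of genes and of transcripts in the layout of RSEM output (mm10 and GENCODE M21, per the file headers and notes) and a smaller gene table (GENCODE M4). The estimated counts (expected counts) deposited in the larger tables need not be whole; the TPM values deposited there sum to 1 fixed total per library, and the deposited FPKM values scale fragments to length and depth. The deposited counts of the smaller table are whole numbers for 22457 genes, totalling 6288764, 6209287 and 5746072. Neither aligner nor quantifier version nor strandedness is given in the sources used here.

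Rows that name no gene (26345 of 81881) held 0.231, 0.271 and 0.189% of counts and were left out of totals and tests. Levels are deposited TPM, as mean and SD over libraries. Estimated counts were rounded to whole numbers for the chi-square test (2 degrees of freedom, summed count of 30 or more), whose calls concern these libraries alone. The test was checked on simulated counts with counting noise alone, which leave out the extra spread that the overdispersion factor of 4.54 stands for. With 1 group, no edgeR or DESeq2 test was made; edgeR's TMM sizes and DESeq2's size factors served as alternative library sizes. Floors cover counting error only: without molecular identifiers, reads do not stand for independent molecules. Protein identity, which had been planned, was not run, as no protein table was used here; identity of coding exons in nucleotides and shared 50-base words took its place. The genes and lists were chosen with earlier results of these data known. All 38 genes and all listed pathway and marker genes of lists of up to 10 are named or counted. Some listed genes are not reported here by name; they stay in every count and sum. Among other genes whose symbol begins with H2-, the 3 highest are named. Alternatives were other thresholds, FPKM, other library sizes and count filters, a deviance statistic, an overdispersion factor, counts not scaled to length, the smaller table, coding transcripts and leaving out each library. Software was Biopython 1.88, scipy 1.17.1 and pandas 2.3.3 in Python 3.11.15, with matplotlib 3.10.9 and numpy 2.4.6, and edgeR 4.0.16 and DESeq2 1.42.0 in R 4.3.3.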

Additional observations from a re-analysis of the deposited data

How the results depend on the processing

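The count of genes at 1 TPM or more (32) ranged from 30 to 33 over its alternatives. The levels summed over transcripts matched those of the gene table within the spread between libraries, and over coding transcripts Tap2 stood at 30.4 in place of 413 TPM and H2-Eb1 at 0.710 in place of 18.5 TPM. The 26 genes that differed between libraries, against 44.9% of all genes tested, became 12 with the smaller gene table, against 23.2%. With the overdispersion factor they became 12, against 9.10%. When 1 library was left out they became 16 to 23, against 27.7 to 34.0%, both lowest without replicate 2. Under other library sizes, count filters and the deviance statistic the count was 25 or 26, against 20.1 to 51.9% of all genes. The counts of the smaller table were also divided by the effective lengths of the larger table. The log2 ratio to classical class I was then -2.60 for class II chains and -1.78 for B2m. It was 1.34 for the light chain and loading genes and 0.22 for the non-classical chains (both of the other sign). That of H2-D1 to H2-K1 was -1.13, which carries the larger table's lengths (942 for H2-K1 and 1811 for H2-D1 in replicate 1). Per exonic base these 2 genes were alike in the smaller table (0.787 and 0.793). With estimated counts not scaled to length, the non-classical ratio was -1.25, the B2m ratio -1.68 and the H2-D1 ratio 0.00. Over coding transcripts, an alternative chosen after seeing the data, the light chain and loading ratio was -0.22, the non-classical -1.77, H2-D1 -0.09 and B2m -0.55. The cause of these shifts was not tested. No paired analysis was possible because there is 1 group. Genes under a summed count of 30 (H2-Q1, H2-T3, H2-M2, H2-M5 and H2-Eb2) are too shallow to compare between libraries.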

Other observations

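GENCODE M21 names another 19 genes whose symbol begins with H2-. Of these, 12 had no counts and 4 reached 1 TPM in every library. The 3 highest are annotated as pseudogenes. H2-Q5, a polymorphic pseudogene, stood at 509.5, 508 and 596 TPM (538 ± 50.3 TPM; SD, n = 3), below H2-Q6 in each library and above every non-classical chain but H2-Q7, H2-Q6 and H2-T23. H2-K2, a transcribed pseudogene next to H2-K1, stood at 126, 154 and 132 TPM. H2-T-ps, which shared 6.05% of the 50-base words of H2-T23, stood at 41.6, 40.2 and 44.4 TPM.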
